A study of Mus musculus with 28 samples.

Results

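The genes described are 9 members of the DNA damage checkpoint: the kinases Atm and Atr, the checkpoint kinases Chek1 and Chek2 that they activate, and the break sensors and ubiquitin-branch factors H2afx (also H2ax), Mdc1, Rnf8, Rnf168 and Trp53bp1. The list was set by name, with earlier results of these data known, and its rule uses no measured value. All 9 were found among the 44674 genes of the bulk table and the 31053 genes of the single-cell matrices. All 9 passed the bulk filter on low counts, as did 26790 genes in all.

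Ovaries of juvenile mice were profiled 6 h after a total-body dose of 0.5 Gy from a cesium source (IR) or after sham treatment (0 Gy). The bulk series had 4 groups of 6 libraries, each library made from the paired ovaries of 1 female aged 7 to 9 days: non-irradiated and irradiated wild-type, and non-irradiated and irradiated Chek2-/-. The single-cell series had 1 library of each of the same 4 kinds, each from the pooled ovaries of 4 females aged 7 days. Chek2-/- females carried the constitutive tm1b(EUCOMM)Hmgu allele in every cell, in which a critical part of the gene is deleted and a lacZ cassette stays in place, and the methods list C57BL/6J mice among those obtained without naming the source of the wild-type females. No source says that the groups were littermates, and no other line of the allele was profiled. With 1 library per single-cell group, irradiation and genotype had no replicates there and were not tested.

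In this pathway ATM responds to double-strand breaks and ATR to single-stranded DNA, and they phosphorylate CHK2 and CHK1, respectively, which halt the cell cycle. ATM also phosphorylates the histone variant H2AX beside the break. MDC1 binds phosphorylated H2AX and recruits the ubiquitin ligase RNF8, after which RNF168 extends the ubiquitin mark on chromatin that 53BP1 reads. The pathway is regulated mostly by phosphorylation and ubiquitylation of proteins already present, which RNA-seq does not measure. In the ovary it is known for eliminating primordial oocytes after IR through CHK2 and its target TAp63. CHK2 also activates p53, whose loss, according to the study's introduction, did not spare oocytes at low doses.

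On build GRCm38, Atm (ENSMUSG00000034218) lies on chromosome 9 at 53439149-53536740 on the minus strand. Atr (ENSMUSG00000032409) lies on chromosome 9 at 95857597-95951781 on the plus strand. Chek1 (ENSMUSG00000032113) lies on chromosome 9 at 36708482-36727065 on the minus strand, and Chek2 (ENSMUSG00000029521) on chromosome 5 at 110839979-110874145 on the plus strand. H2afx (ENSMUSG00000049932) spans chromosome 9 at 44334694-44336077 on the plus strand. Mdc1 (ENSMUSG00000061607) and Rnf8 (ENSMUSG00000090083) are on the plus strand of chromosome 17, at 35841515-35859670 and 29614790-29644991. Rnf168 (ENSMUSG00000014074) is on chromosome 16 at 32277459-32301434, plus strand, and Trp53bp1 (ENSMUSG00000043909) on chromosome 2 at 121193281-121271407, minus strand.

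Promoter windows from 250 bases before to 50 bases after the start site (RefSeq, GRCm38.p6) were given for 8 of the 9 genes, all but H2afx. They are shown because Chek1, Mdc1, Rnf8 and Rnf168 were all higher in oocyte-like cells than in somatic cells, as described further on. Atr was higher there too, and its window held no match to the letters searched first. These were GGCGGGAA, a form of the site that E2F factors bind. Searched on both strands, they occurred in 4 of the 8 windows, those of these same 4 genes, and in 2.19% of 32851 windows of that length over all genes. The motif was picked after the Chek1 and Rnf168 windows had been read, so its share among the members is a description. A match is a string of letters and no evidence of binding. The matches follow 5′ to 3′ on the strand of the gene, with the motif or its reverse complement in capitals and up to 10 bases on each side.
Chek1: agcaggttttGGCGGGAA
Mdc1: ttcagcctgtTTCCCGCCggtagccgca
Rnf8: acctgcgcacTTCCCGCCcgcctcccgc
Rnf168: tagcaggctaGGCGGGAAcgcagacgca
The Chek1 match begins 43 bases after the start site, inside an exon (chr9:36726609-36726626, minus strand). The Mdc1 match lies at -15 (chr17:35841473-35841500) and the Rnf168 match at -37 (chr16:32277414-32277441), both outside annotated exons. The Rnf8 match lies at -24 (chr17:29614755-29614782) and overlaps an annotated exon. That exon is not one of Rnf8, whose annotated locus starts at 29614790. The related letters GGCGCGAA occurred in 0 of the 8 windows and in 0.524% of all windows.

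The Chek2 promoter window carried the CCAAT box at 2 places on the reverse strand, read here as ATTGG in capitals, at -186 and -26. The stretch outside exons (chr5:110839778-110839978, plus strand) is shown because Chek2 is the gene deleted in the mutant and was lower in growing than in primordial-type oocyte-like cells.
Chek2: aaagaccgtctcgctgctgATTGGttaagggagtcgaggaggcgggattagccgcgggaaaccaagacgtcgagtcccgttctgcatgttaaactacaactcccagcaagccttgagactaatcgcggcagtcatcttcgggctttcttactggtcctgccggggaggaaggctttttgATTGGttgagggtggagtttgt
The letters CCAAT occurred on either strand in 4 of the 8 windows, of Atm, Chek2, Mdc1 and Rnf8, and in 37.4% of all windows. The letters TTTGAA, a form of the cell cycle homology region, occurred in the Rnf8 window alone among the 8 and in 17.9% of all windows.

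Bulk libraries held 17824920 to 32605519 counts, with a median of 26621925.5. Values are CPM, counts scaled to library size, after normalization by the trimmed mean of M-values, and tests are edgeR quasi-likelihood tests with Benjamini-Hochberg adjustment over all 26790 genes. A gene was called at an adjusted p of at most 0.05. The study required in addition a 2-fold change. Ovarian identity was present in every library: all 10 oocyte and all 10 granulosa markers were tested, with summed levels of 2538 to 5221 CPM and 2307 to 3597 CPM, respectively. A bulk ovary cannot tell fewer cells of a type from less RNA per cell, which holds for every bulk difference below. Both Chek2-/- libraries numbered 6 stood apart in growing oocyte markers, at 2006 CPM against 3831 to 4835 CPM in the other non-irradiated Chek2-/- libraries and at 2245 CPM against 4235 to 4597 CPM in the other irradiated ones. They are circled in the plot of CPM by library, and values of the 9 genes that rest on the Chek2-/- groups were also computed without them; those of other genes were not.

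Chek2, the gene deleted in the mutant, was checked first. Its level was 19.8 CPM at the lowest, 22.5 at the median and 24.6 at the highest in non-irradiated wild-type ovaries, and 2.88, 3.72 and 4.44 CPM in non-irradiated Chek2-/- ovaries. After IR it was 18.5, 21.3 and 23.5 CPM in wild-type and 3.34, 4.05 and 4.53 CPM in Chek2-/- ovaries. Every Chek2-/- library lay below every wild-type library, so the genotype labels held. The log2 fold change of Chek2-/- against wild-type was -2.58 ± 0.10 (SE, n = 6 per group) without IR, with an adjusted p of 7.45e-15, and -2.41 ± 0.10 after IR, with an adjusted p of 1.49e-14. Without both libraries numbered 6 these values were -2.51 and -2.37. Chek2 was called after IR in neither genotype: the log2 fold change was -0.09 ± 0.09 (adjusted p = 0.85) in wild-type and 0.08 ± 0.10 (adjusted p = 1.00) in Chek2-/- ovaries by edgeR.

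**Figure D1:**
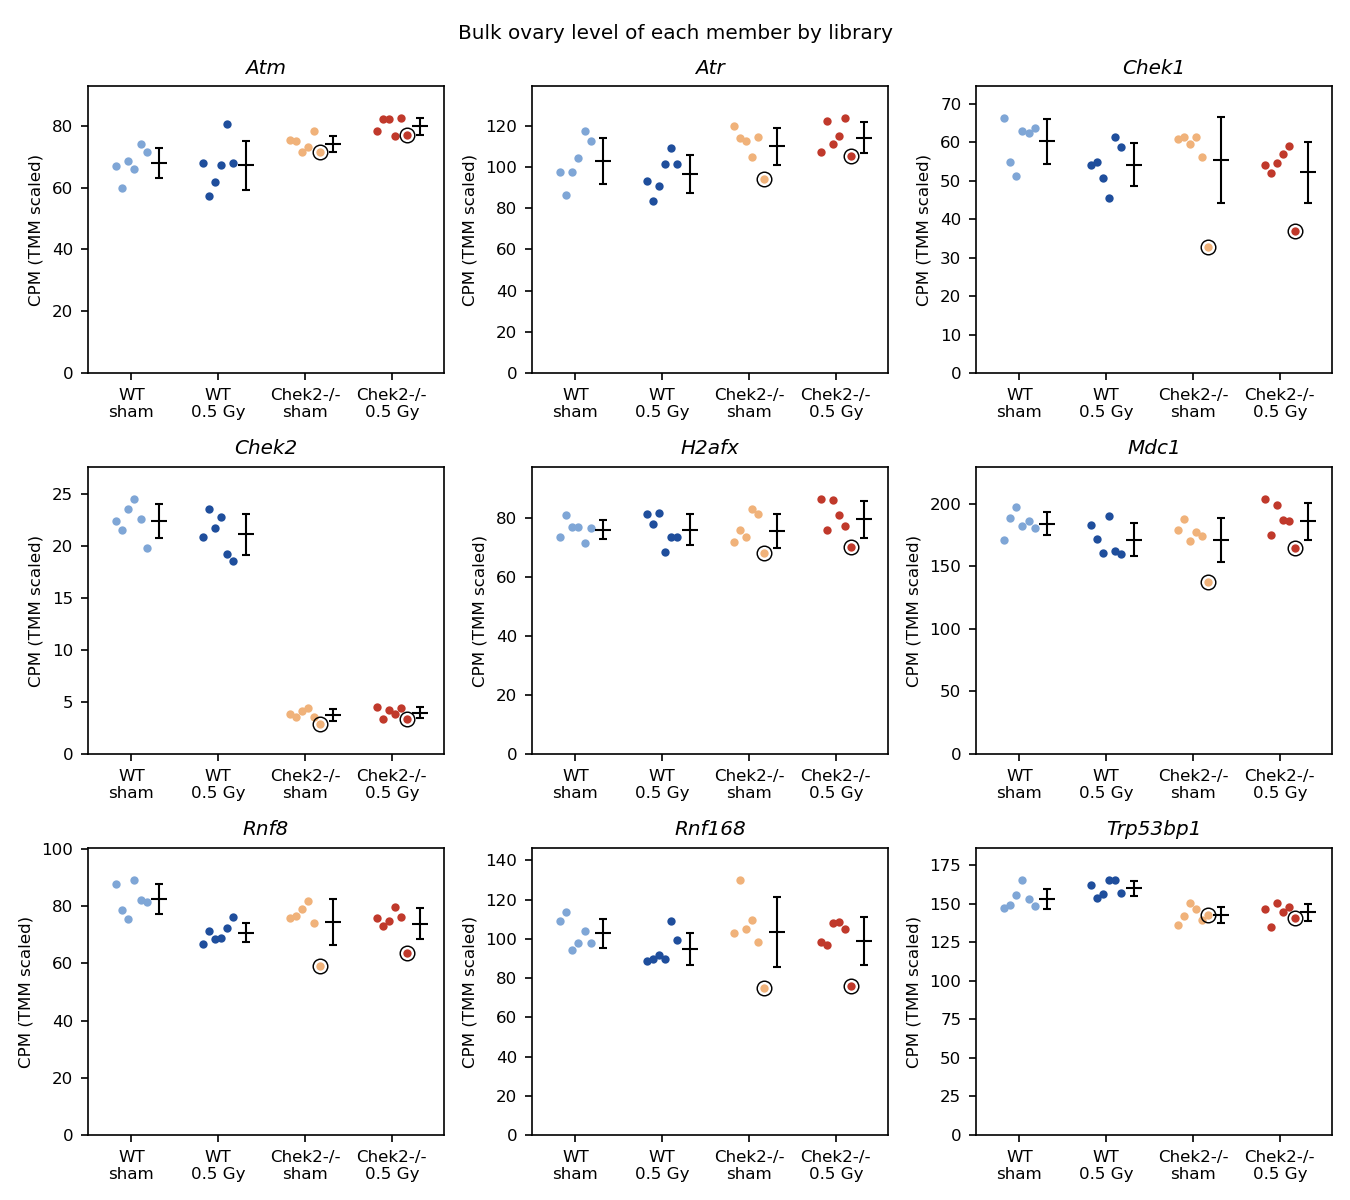
Level of each of the 9 genes (CPM, y axis, one panel per gene) in the 24 bulk libraries by group, with the mean ± SD beside the points. Circled points are the Chek2-/- libraries numbered 6; Chek2 lies between 2.88 and 4.53 CPM in all Chek2-/- libraries and between 18.5 and 24.6 CPM in all wild-type libraries.

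Per kilobase of merged exon, H2afx was the most abundant of the 9 transcripts in non-irradiated wild-type ovaries, with a mean of 54.9 RPKM (CPM divided by the merged exon length in kilobases). Mdc1 (24.8 RPKM) and Rnf168 (23.1 RPKM) followed, then Chek1 (13.0 RPKM) and Trp53bp1 (10.8 RPKM). Chek2 (7.47 RPKM), Rnf8 (7.04 RPKM), Atm (6.57 RPKM) and Atr (4.34 RPKM) were the least abundant. Atm and Atr, the upstream kinases, had the lowest values by this measure, with merged exon lengths of 10338 and 23629 bases. Merged exon length overstates the length of a gene whose short isoforms dominate. The order of the genes depends on it, and no other length was tried.

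To ask whether IR altered RNA of the checkpoint genes, irradiated and non-irradiated ovaries of each genotype were compared. In wild-type ovaries 0 of the 9 genes was called by edgeR, against 2.41% of all genes tested, and 0 with the 2-fold minimum (1.08%). At an unadjusted p under 0.05, 1 of the 9 passed, against 11.4% of all genes, and DESeq2 and limma-voom also called 0 of the 9. The median absolute log2 fold change was 0.09 over the 9 genes and 0.13 over all genes tested.

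The gene nearest to a call was Rnf8, the ligase that starts ubiquitylation at breaks. It measured 75.5, 81.8 and 89.2 CPM (lowest, median and highest) in non-irradiated and 66.8, 70.0 and 76.2 CPM in irradiated wild-type ovaries. Of the 6 irradiated libraries, 5 lay below every non-irradiated library, and the groups overlapped through the remaining one. The log2 fold change was -0.22 ± 0.06 (n = 6 per group), a change of -14.3% with a 95% interval from -21.8% to -5.99%, and the adjusted p was 0.0733. The call turned on the libraries fitted: Rnf8 was called when the 2 wild-type groups were fitted alone and when the non-irradiated Chek2-/- library 6 was left out. Of the marker lists, 2 of 10 general oocyte and 1 of 8 primordial oocyte markers fell after IR in wild-type ovaries (median log2 fold changes -0.28 and -0.28). Over all genes tested 0.885% were lower. Of 8 pericyte markers 1 rose (median 0.08), where 1.53% of all genes were higher. The part of these markers in the Rnf8 values was not tested.

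For the kinases the values of the wild-type groups overlapped throughout. Atm was at 59.9, 67.9 and 74.1 CPM without IR and 57.4, 67.6 and 80.7 CPM with IR, a log2 fold change of -0.01 ± 0.06 (adjusted p = 0.98). Atr was at 86.4, 100.9 and 117.2 CPM without IR and 83.6, 97.1 and 109.3 CPM with IR (-0.09 ± 0.07, adjusted p = 0.76). Chek1 was at 51.4, 62.7 and 66.4 CPM without IR and 45.5, 54.5 and 61.3 CPM with IR (-0.15 ± 0.12, adjusted p = 0.76). The 95% interval of the Chek1 change ran from -24.6% to 7.30%.

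Among the sensors and readers, H2afx had a log2 fold change of 0.00 ± 0.06 (adjusted p = 1.00) between wild-type groups that ran from 71.3 to 80.8 CPM and from 68.4 to 81.5 CPM. Mdc1 was at -0.10 ± 0.07 (adjusted p = 0.62), with 3 of the 6 irradiated libraries below every non-irradiated one. Rnf168 was at -0.12 ± 0.10 (adjusted p = 0.76) and Trp53bp1 at 0.06 ± 0.04 (adjusted p = 0.57). In 7 of the 9 genes the fitted change was below 0, none of them past the test.

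In Chek2-/- ovaries IR also moved 0 of the 9 genes past the test by edgeR, against 0.0112% of all genes tested and 0.00373% with the 2-fold minimum. At an unadjusted p under 0.05, 0 of the 9 passed, against 4.4% of all genes, and DESeq2 and limma-voom called 0. The log2 fold changes lay between -0.08 ± 0.12 (Chek1) and 0.12 ± 0.06 (Mdc1), and the count was 0 as well without both libraries numbered 6. The irradiation effect differed between genotypes in 0 of the 9 genes by edgeR, against 1.03% of all genes and 0.623% with the 2-fold minimum, while 2 of the 9 passed at an unadjusted p under 0.05 (9.14% of all genes) and DESeq2 and limma-voom called 0. Those 2 were Mdc1, with a difference of 0.22 ± 0.09 on the log2 scale (Chek2-/- minus wild-type, adjusted p = 0.42), and Rnf8, with 0.21 ± 0.09 (adjusted p = 0.45). Without both libraries numbered 6 these differences were 0.20 and 0.19.

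The same libraries carried a transcriptional response. Cdkn1a, which encodes the cell cycle inhibitor p21 and is induced by p53, was at 22.0, 25.2 and 36.6 CPM in non-irradiated and 75.5, 87.2 and 103.9 CPM in irradiated wild-type ovaries. It rose by a log2 fold change of 1.67, and the other p53 targets listed rose by 1.33 (Mdm2), 2.03 (Ccng1) and 1.89 (Bbc3). In Chek2-/- ovaries Ccng1 rose (0.56, adjusted p = 6.82e-07), while Cdkn1a had a log2 fold change of 0.31 (adjusted p = 1.00) and Mdm2 of 0.02 (adjusted p = 1.00). Bbc3 was at 0.45 (adjusted p = 0.516 by edgeR), with 5.53 to 6.43 CPM without IR and 6.75 to 9.66 CPM with IR, groups that did not overlap.

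Other genes of the pathway were taken from a list of 46 genes (activators of ATM and ATR, CHK1 mediators, the ubiquitin branch, 53BP1 effectors, related kinases, cell cycle targets and brakes), of which 45 were tested. In wild-type ovaries 2 of the 45 rose and 1 fell after IR (1.53% and 0.885% of all genes tested), with a median log2 fold change of -0.05 over the list and 0.00 over all genes tested. At an unadjusted p under 0.05, 11 of the 45 passed, against 11.4% of all genes. Rnf169, which binds the same ubiquitin mark as 53BP1 and limits its recruitment, rose from a mean of 76.3 ± 4.96 to 106.7 ± 2.20 CPM (SD, n = 6 per group). Its log2 fold change was 0.48 (adjusted p = 4.47e-07), and no irradiated wild-type library overlapped the non-irradiated ones.

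Ppm1d, the phosphatase WIP1 that removes ATM- and CHK2-dependent phosphorylation, rose from 27.8 ± 0.94 to 36.9 ± 2.02 CPM (0.41, adjusted p = 6.35e-07). Rad1, a subunit of the 9-1-1 clamp that loads the ATR activator at damaged DNA, fell from 62.9 ± 6.71 to 41.5 ± 5.30 CPM (-0.60 ± 0.09, adjusted p = 5.55e-05). The irradiated and non-irradiated wild-type libraries did not overlap for either gene. In Chek2-/- ovaries 0 of the 45 were called by edgeR, DESeq2 or limma-voom, and 4 passed at an unadjusted p under 0.05, against 4.4% of all genes. There Rad1 averaged 68.3 and 69.5 CPM, Ppm1d 30.1 and 30.3 CPM, and Rnf169 74.0 and 83.2 CPM without and with IR.

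The difference of the irradiation effect between genotypes passed the test by edgeR for these 3 genes among the 45, 1 higher and 2 lower in Chek2-/- (0.34% and 0.694% of all genes tested), and DESeq2 and limma-voom gave the same counts. At an unadjusted p under 0.05, 6 of the 45 passed, against 9.14% of all genes. The difference was 0.63 (adjusted p = 0.00544) for Rad1, -0.31 (adjusted p = 0.0228) for Rnf169 and -0.40 (adjusted p = 4.52e-04) for Ppm1d. In the single-cell libraries Ppm1d stood at 34.1 UMI CPM (CPM from unique molecular identifiers, UMIs, of which each marks 1 captured transcript, relative to all UMIs of the class) in primordial-type oocyte-like cells of the non-irradiated wild-type library and at 96.2 in the irradiated one, against 31.8 and 31.6 in the Chek2-/- libraries. Of the 89 irradiated wild-type cells 77 formed a sub-cluster with no cells of the other libraries, and all 22 non-irradiated ones lay outside it. In the clusters of granulosa-like cells outside division, the irradiated over non-irradiated ratio of Ppm1d was 1.08, 1.11 and 1.15 in wild-type libraries. The 95% counting intervals were 0.865 to 1.34, 0.982 to 1.25 and 1.00 to 1.32. In Chek2-/- libraries the ratio was 1.02, 0.997 and 0.994. Rad1 in granulosa-like cells outside division was at 19.2 and 17.7 UMI CPM in the wild-type libraries, which count 3′ tags and not whole transcripts. Other classes are not described here for these genes.

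**Figure D2:**
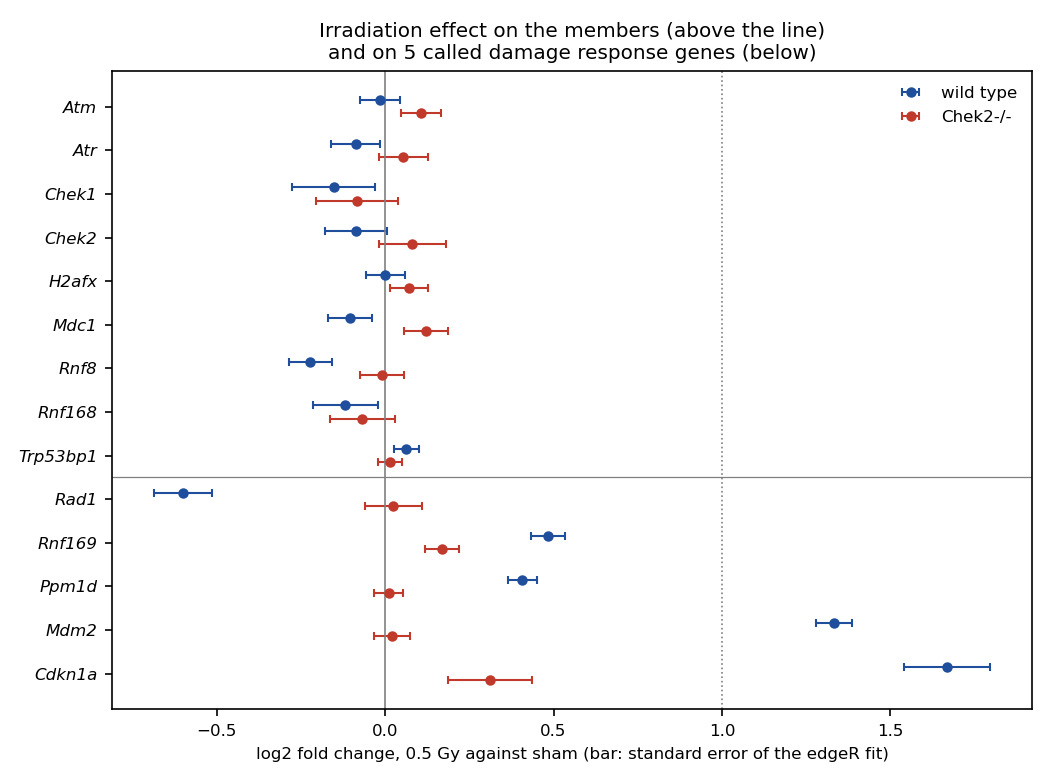
Log2 fold change of irradiated against non-irradiated bulk ovaries (x axis, ± SE) for the 9 genes and for Rad1, Rnf169, Ppm1d, Mdm2 and Cdkn1a, in wild-type and in Chek2-/- ovaries (n = 6 per group); the dotted line marks a 2-fold change. The 9 genes sit between -0.22 and 0.12, while Cdkn1a reaches 1.67 in wild-type ovaries.

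To ask whether loss of Chek2 was accompanied by changes of the other 8 genes, genotypes were compared within each treatment. Without IR, 1 of the 9 genes was called, against 5.34% of all genes tested (2.22% lower), and that gene was Chek2 itself. It was also the 1 gene called with the 2-fold minimum (0.788% of all genes). Trp53bp1 (-0.10 ± 0.04, adjusted p = 0.105), Rnf8 (-0.15 ± 0.06, adjusted p = 0.175) and Atm (0.13 ± 0.06, adjusted p = 0.218) were next in order and were not called by edgeR. DESeq2 called Trp53bp1 in addition. Of the pathway list 0 of 45 were called by edgeR and limma-voom and 1 by DESeq2, while 8 passed at an unadjusted p under 0.05, against 21.6% of all genes.

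After IR, 4 of the 9 genes were called between genotypes, against 9.84% of all genes tested (5.52% higher and 4.32% lower), and the same number without both libraries numbered 6 (log2 fold changes of -2.37 for Chek2, 0.25 for Atm, 0.26 for Atr and -0.15 for Trp53bp1). Chek2 and Trp53bp1 were lower in Chek2-/- ovaries, and Atm and Atr were higher. With the 2-fold minimum 1 was called, Chek2, against 2.39% of all genes.

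Trp53bp1, which encodes the reader of the RNF168 mark, was at 153.7, 159.6 and 165.3 CPM in irradiated wild-type and 135.1, 145.6 and 150.5 CPM in irradiated Chek2-/- ovaries. The groups did not overlap. The log2 fold change was -0.15 ± 0.04, a change of -9.75%, with an adjusted p of 0.00966. Without IR the groups overlapped slightly, at 147.4, 150.9 and 165.0 CPM against 135.8, 142.5 and 150.2 CPM, and 5 of the 6 Chek2-/- libraries lay below every wild-type one.

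Atm was at 76.7, 80.2 and 82.6 CPM in irradiated Chek2-/- ovaries, and 3 of these 6 libraries exceeded every irradiated wild-type library. It was 18.8% higher (log2 fold change 0.25 ± 0.06, adjusted p = 0.00836). Atr was at 105.3, 113.1 and 123.7 CPM there, with 4 of 6 libraries above every irradiated wild-type one. It was 18.2% higher (0.24 ± 0.07, adjusted p = 0.0347). Both pairs of groups overlapped, and the Atr call was lost under 9 of the alternatives, with log2 fold changes of 0.19 to 0.27 when single libraries were left out. These were the fit without a filter on low counts and the fits without non-irradiated wild-type library 4, irradiated wild-type library 1, 2 or 3, or irradiated Chek2-/- library 2, 3, 4 or 5.

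The remaining 5 genes were not called between irradiated genotypes: Mdc1 (0.12 ± 0.07, adjusted p = 0.28), H2afx (0.06 ± 0.06), Rnf8 (0.06 ± 0.06), Rnf168 (0.06 ± 0.10) and Chek1 (-0.05 ± 0.12). Of the 45 pathway genes 2 were higher and 2 lower in irradiated Chek2-/- ovaries by edgeR and limma-voom (5.52% and 4.32% of all genes by edgeR), and 2 higher and 3 lower by DESeq2. By edgeR, Rad1 (0.74) and Smg1 (0.18, adjusted p = 0.0462), a kinase related to ATM and ATR, were higher, and Rnf169 (-0.36) and Ppm1d (-0.28) were lower. At an unadjusted p under 0.05, 15 of the 45 passed, against 23.6% of all genes. Cdkn1a was higher in Chek2-/- ovaries without IR (0.47, adjusted p = 0.0308), at 31.8 to 43.0 CPM against 22.0 to 36.6 CPM, and lower in them after IR (-0.89, adjusted p = 2.59e-05).

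Other transcripts moved with genotype as well. After IR, 6 of 8 primordial oocyte markers were higher in Chek2-/- ovaries (median log2 fold change 0.88), as were 6 of 10 general oocyte markers (median 0.38), where 5.52% of all genes were higher and 4.32% lower. Summed primordial markers ran from 350.0 to 465.9 CPM in irradiated wild-type and from 482.1 to 650.3 CPM in irradiated Chek2-/- ovaries, and without IR from 436.7 to 601.8 CPM and from 393.6 to 643.1 CPM. Of 9 growing oocyte markers 1 was lower (median -0.40), and 5 of 8 perivascular smooth muscle markers, 3 of 10 fibroblast markers, 2 of 8 pericyte markers, 1 of 10 granulosa markers and 1 of 10 oviduct and uterine epithelium markers were lower, while 1 of 6 neutrophil markers was higher. Summed granulosa markers ran from 2762 to 3317 CPM in irradiated wild-type and from 2307 to 3008 CPM in irradiated Chek2-/- ovaries. The part of these markers in the genotype differences of Atm, Atr and Trp53bp1 was not tested.

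Nnt, which carries a known deletion in C57BL/6J mice, was at 26.6 to 36.4 CPM in all wild-type and 54.7 to 78.3 CPM in all Chek2-/- libraries (log2 fold change 1.04 in both treatments, adjusted p = 1.05e-07 without and 3.32e-08 with IR). Strain background and Chek2 genotype therefore cannot be told apart in any genotype comparison. Genes next to Chek2 were not called: Hscb was at -0.23 (adjusted p = 0.191), Ttc28 at -0.27 (adjusted p = 0.0685) and Ulk1 at -0.19 (adjusted p = 0.102) without IR.

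Within the Chek2-/- groups the libraries numbered 6 had the lowest levels of their group for Atr, Chek1, H2afx, Mdc1, Rnf8 and Rnf168. Chek1 was at 32.8 CPM in the non-irradiated one, with the next library at 56.2, and at 36.9 CPM in the irradiated one, with the next at 52.1. Rnf8 was at 58.9 CPM in the non-irradiated one (next 74.3), Mdc1 at 137.7 CPM (next 170.1), and Rnf168 at 75.9 CPM in the irradiated one (next 96.9). H2afx, which was lower in oocyte-like than in somatic cells of the single-cell data, was at 68.1 CPM in the non-irradiated one (next 71.8) and 70.2 CPM in the irradiated one (next 75.9). Trp53bp1 was the lowest in neither, at 142.8 and 140.9 CPM. Growing oocyte markers and dividing-cell markers were low in the same pair, the latter at 981 and 1031 CPM. Other libraries stood apart in blood cell markers. Summed erythroid markers were at 10529 CPM in non-irradiated Chek2-/- library 5 and 7082 CPM in irradiated Chek2-/- library 2, against 199 to 926 CPM in the rest. Summed neutrophil markers were at 1303 CPM in irradiated wild-type library 3 and 1335 CPM in irradiated Chek2-/- library 2, against at most 10.1 CPM in the rest. Leaving out any of these 3 libraries changed 1 call of a member, that of Atr between irradiated genotypes, which was lost without either library with neutrophil markers (log2 fold changes of 0.22 and 0.21).

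**Figure D3:**
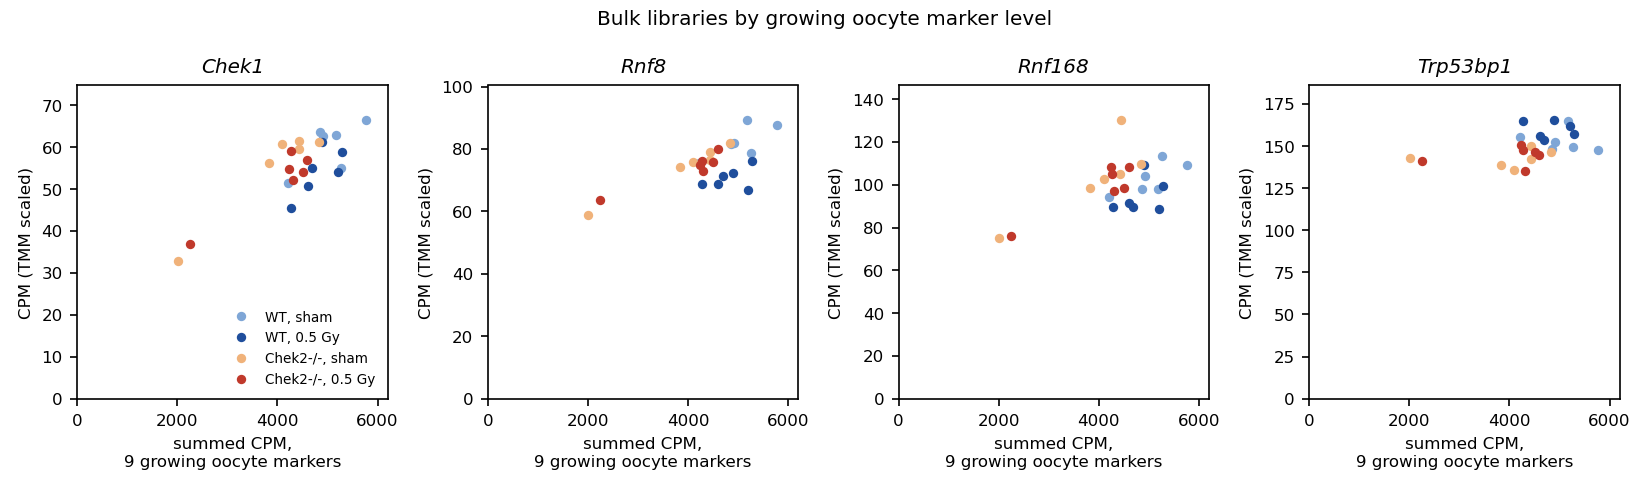
Level of Chek1, Rnf8, Rnf168 and Trp53bp1 (CPM, y axis) against the summed CPM of 9 growing oocyte markers (x axis) in the 24 bulk libraries, coloured by group. Both Chek2-/- libraries numbered 6 lie far to the left, at 2006 and 2245 CPM, with Chek1 at 32.8 and 36.9 CPM.

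Single-cell matrices were used to ask in which cells these transcripts were counted. Background RNA in the droplets was not estimated, so low levels in a class may include it. After filters and removal of doublets, 9277, 9779, 8697 and 8771 cells remained in the non-irradiated wild-type, irradiated wild-type, non-irradiated Chek2-/- and irradiated Chek2-/- libraries, with medians of 13908, 14476, 15527 and 17135 UMIs per cell. Pairs of libraries shared 16 to 36 cell barcodes. Clusters were named from marker lists, and the 9 genes were kept out of the genes used for clustering, but classes and levels come from the same cells. UMIs were summed per class and library and expressed as CPM of all UMIs of the class (UMI CPM). These shares can be set side by side between classes but not, for 3′ tags, between genes. The folds tested further on were in addition normalized by the trimmed mean of M-values, so that shares and folds can differ. Trp53bp1, for example, had median shares of 42.4 in oocyte-like and 35.2 in somatic cells but a fold of 0.993.

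There were 582 oocyte-like cells (196, 171, 75 and 140 in the 4 libraries). Sub-clustering gave 67 growing oocyte-like cells (37, 17, 4 and 9), 41 intermediate ones (20, 0, 11 and 10) and 204 primordial-type ones (22, 89, 31 and 62). A further 270, with RNA of somatic genes, were kept out of the stage comparison. Their top 10 genes by fold held more markers of a somatic list than of oocytes. These were 1, 1 and 4 against 0 in sub-clusters of 95, 104 and 71 cells. Folds were taken over the median oocyte-like sub-cluster, and the sub-clusters kept also held 0 oocyte markers there. The rule thus came down to somatic markers, of which 1 was enough, and does not show weaker oocyte identity. Median UMIs per cell were 199459, 165935.5 and 9409 in these sub-clusters. Their primordial scores (0.691, 0.591 and 0.585) also passed the limit of 0.5. In the non-irradiated wild-type library they numbered 117, against 22 primordial-type cells kept. Chek2 stood at 4.98 to 18.9 UMI CPM in them. With them added to the primordial-type cells, 9499 of 17161 genes were called between stages. The median log2 fold change over all genes was then -0.35, against -0.14 in the main comparison. Values of the 9 genes under this alternative are not given here. Of the primordial-type cells, 77 formed a sub-cluster from the irradiated wild-type library alone. Median UMIs per growing oocyte-like cell were 22573 and 31910 in the wild-type but 246287.5 and 303696 in the Chek2-/- libraries. Depth per cell thus differed widely between libraries, and levels below are shares of summed UMIs and not counts per cell.

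Rnf8 had its highest level in growing oocyte-like cells, at 251 to 339 UMI CPM over the 4 libraries, followed by intermediate (121 to 132) and primordial-type oocyte-like cells (86.8 to 131), whose ranges overlapped. All somatic classes were lower, led by dividing granulosa-like cells at 31.3 to 34.7. Chek1 had the same order without overlap among the oocyte-like classes: 134 to 192 in growing, 74.5 to 77.4 in intermediate and 40.9 to 56.1 in primordial-type cells, then 24.7 to 25.6 in dividing granulosa-like cells. Rnf168 ran from 130 to 170 in growing, 110 to 114 in intermediate and 54.3 to 89.5 in primordial-type cells, and from 32.0 to 36.7 in dividing granulosa-like cells.

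Atr had the opposite order among oocyte-like stages. It was highest in primordial-type cells (72.8 to 83.0 UMI CPM), then intermediate (57.4 to 69.8) and growing cells (38.8 to 56.8), the last overlapping dividing granulosa-like cells (41.3 to 48.0). Mdc1 was at 49.7 to 79.6 in primordial-type, 59.8 to 72.0 in intermediate and 46.1 to 66.3 in growing cells, which overlapped, and dividing fibroblast-like cells came next at 36.0 to 40.3. Atm had no break in its order: it ran from 19.7 to 31.6 in primordial-type oocyte-like cells down to 6.41 to 14.8 in pericyte-like cells, and all neighbours overlapped.

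H2afx was highest in dividing cells, at 590 to 712 UMI CPM in dividing fibroblast-like and 381 to 464 in dividing granulosa-like cells, without overlap between these or with pericyte-like cells (154 to 243). Granulosa-like cells outside division were lowest, at 54.7 to 56.9. Trp53bp1 was highest in growing oocyte-like cells, at 102 and 107 in the wild-type libraries and 51.4 and 122 in the Chek2-/- ones. Next came granulosa-like cells outside division (40.0 to 43.5) and intermediate oocyte-like cells (40.9 to 54.8), with medians over the libraries of 42.1 and 41.0. The lowest median was 22.8, in pericyte-like cells.

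Chek2 is described in the wild-type libraries, the mutant ones lacking part of the transcript. It stood at 27.1 and 27.7 UMI CPM in dividing granulosa-like cells, 26.8 and 20.9 in primordial-type oocyte-like cells, and 16.9 and 18.8 in dividing fibroblast-like cells (non-irradiated and irradiated). In growing oocyte-like cells it was at 9.88 (27 UMIs, 95% exact Poisson interval 6.51 to 14.4) and 5.71 (14 UMIs, 3.12 to 9.58), and in granulosa-like cells outside division at 6.86 and 6.31. In the Chek2-/- libraries it was lower in each of these classes, for example at 5.34 and 6.45 in dividing granulosa-like cells. The 3′ tags read there need not come from the deleted part of the gene, so they are no check of the deletion. Intervals on UMI counts cover counting error only.

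**Figure D4:**
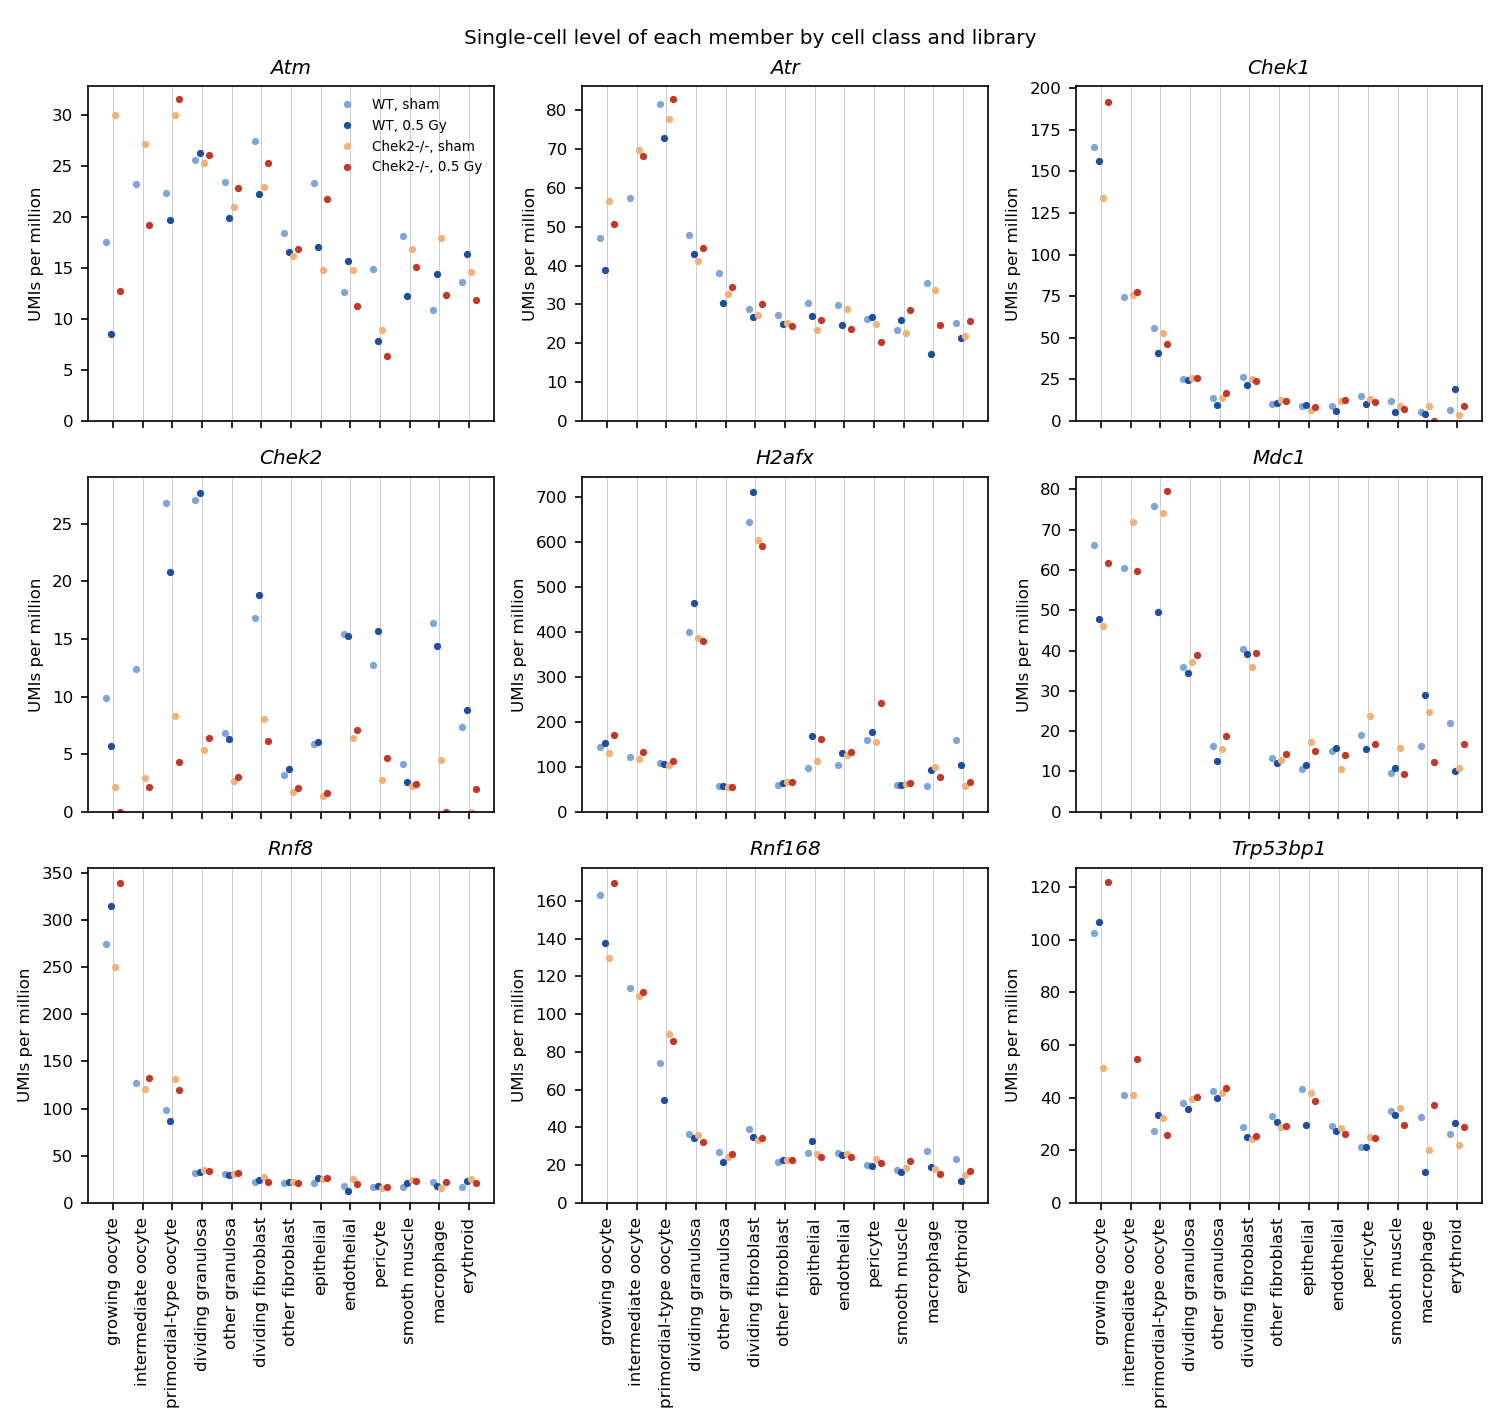
Level of each of the 9 genes (UMI CPM of the class, one panel per gene) in 13 cell classes, one point for each of the 4 libraries, or for 3 in intermediate oocyte-like cells, of which the irradiated wild-type library had 0. Rnf8, Chek1 and Rnf168 peak in growing oocyte-like cells, H2afx in dividing fibroblast-like cells at 590 to 712 UMI CPM, and Chek2 is low in both Chek2-/- libraries.

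To compare classes over the 4 libraries, summed UMIs were tested with edgeR's quasi-likelihood test with the library as a block. Between oocyte-like and somatic cells 6 of the 9 genes were called, 5 higher and 1 lower in oocyte-like cells, where 73.7% of 21346 genes were called (33.3% higher and 40.4% lower). With the 2-fold minimum 4 were called (53.8% of all genes). The median log2 fold change was 0.87 over the 9 genes and -0.35 over all genes.

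Rnf8 was at 109 and 126 UMI CPM in oocyte-like cells of the wild-type libraries and 127 and 138 in those of the Chek2-/- libraries, against 25.1 to 27.3 in somatic cells. It was 3.96-fold higher (95% interval 3.55 to 4.41, n = 4 libraries, adjusted p = 9.30e-07). Chek1 was 3.43-fold higher (3.01 to 3.90, adjusted p = 2.30e-06), at 58.0 to 69.3 against 12.9 to 17.3 UMI CPM. In each library the oocyte-like level of both genes exceeded the somatic level.

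Rnf168 was 2.54-fold (2.19 to 2.95), Mdc1 2.41-fold (2.09 to 2.79) and Atr 1.83-fold (1.63 to 2.05) higher in oocyte-like cells. H2afx was lower, at 0.520-fold (0.474 to 0.570), at 104.6 to 120 against 167 to 196 UMI CPM. Atm (0.934-fold, 0.767 to 1.14, adjusted p = 0.472) and Trp53bp1 (0.993-fold, 0.835 to 1.18, adjusted p = 0.935) were not called, and their sign depended on the scaling. With the Chek2-/- libraries included, Chek2 ran from 3.70 to 18.0 UMI CPM in oocyte-like and from 3.35 to 9.89 in somatic cells. Over these 4 libraries it was at 1.27-fold (0.934 to 1.74, adjusted p = 0.132) and was called, as higher, under 5 alternatives. These were scaling to total UMIs (log2 fold change 0.60) or by relative log expression (0.50), limma-voom (0.45), the filterByExpr filter (0.51) and leaving out the irradiated Chek2-/- library (0.56). The median of all genes moved from -0.35 to -0.10 and -0.20 under the 2 scalings.

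The 270 cells with RNA of somatic genes are among the oocyte-like cells of this comparison, at median UMIs per cell of 195684, 3393, 165052 and 167358 in the 4 libraries, and Rnf8 stood at 64.8 to 97.4 UMI CPM in them. Without these cells, an alternative chosen after seeing the data, 6 genes were called again. The main comparison called 73.7% of all genes, and the share under the alternative is not given here. Rnf8 was then higher by 2.21, Chek1 by 2.07, Rnf168 by 1.58, Mdc1 by 1.28 and Atr by 0.75 on the log2 scale, and H2afx was at -0.92, against a median of -0.50 over all genes. Chek2 was at 0.12 (adjusted p = 0.692 by edgeR).

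Of the pathway list 24 of 45 genes were higher and 6 lower in oocyte-like cells (33.3% and 40.4% of all genes), with a median log2 fold change of 0.29 against -0.35 over all genes. Atmin, a cofactor of ATM, was higher by 2.53, Pkmyt1, an inhibitory kinase of CDK1, by 1.73, and Rpa1, the large subunit of the protein that coats single-stranded DNA, by 1.58 on the log2 scale. Rad50 of the MRN complex that activates ATM (1.55) and Babam1 of the BRCA1-A complex (1.48) were higher as well, as was Cdkn1a (2.13).

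Dividing granulosa-like cells (603 to 911 per library) were compared with other granulosa-like cells (2423 to 2968 per library). Of the 9 genes 8 were called, all higher in dividing cells, where 53.7% of 18488 genes were called (25.9% higher). With the 2-fold minimum 3 were called (10.2% of all genes). The median log2 fold change was 0.55 over the 9 genes and -0.05 over all genes.

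H2afx was 7.49-fold higher in dividing granulosa-like cells (95% interval 7.07 to 7.95, n = 4 libraries, adjusted p = 2.61e-17), at 381 to 464 against 54.7 to 56.9 UMI CPM. Chek2 was 3.34-fold higher (2.70 to 4.13, adjusted p = 5.32e-08) with the Chek2-/- libraries included. Mdc1 (2.41-fold, 2.21 to 2.63) and Chek1 (1.95-fold, 1.72 to 2.21) came next. Rnf168 (1.46-fold), Atr (1.35-fold), Atm (1.23-fold) and Rnf8 (1.12-fold, 1.05 to 1.19) were called with smaller differences.

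Trp53bp1 was at 0.945-fold (0.891 to 1.00, adjusted p = 0.0990), and was called lower with scaling to total UMIs and with clusters at resolution 1. Of the pathway list 33 of 45 were higher and 5 lower (25.9% and 27.8% of all genes), with a median of 0.44 against -0.05 over all genes. Among those higher were Cdc25c and Cdc25b, phosphatases that activate CDK1 (5.51 and 2.68 on the log2 scale). Bard1, the partner of BRCA1 (2.79), Clspn, the adaptor for CHK1 activation (2.25), and Wee1, an inhibitory kinase of CDK1 (1.81), were also higher, and Cdkn1a was lower (-0.50).

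Growing and primordial-type oocyte-like cells were compared last. Of the 9 genes 8 were called, 5 higher and 3 lower in growing cells, where 48.8% of 15541 genes were called (22.9% higher and 25.9% lower). With the 2-fold minimum 4 were called (30.2% of all genes). The median log2 fold change was 0.41 over the 9 genes and -0.14 over all genes.

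Chek1, Trp53bp1, Rnf8 and Rnf168 were higher in growing cells. Chek1 was at 165, 156, 134 and 192 UMI CPM in growing cells of the 4 libraries, in the order given for cell numbers, against 56.1, 40.9, 53.02 and 46.1 in primordial-type cells. The difference was 3.20-fold (95% interval 2.57 to 3.98, n = 4 libraries, adjusted p = 7.61e-07). Trp53bp1 was 3.05-fold (2.26 to 4.13, adjusted p = 1.97e-05), Rnf8 2.63-fold (2.11 to 3.28) and Rnf168 1.94-fold (1.57 to 2.40) higher. In every library the growing level of these 4 genes exceeded the primordial-type level.

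Chek2 went the other way. It was at 9.88, 5.71, 2.14 and 0 UMI CPM in growing cells against 26.8, 20.9, 8.28 and 4.33 in primordial-type cells, so that each library held less in growing cells. The 0 rests on 2362920 UMIs, where 3 counts would be 1.27 UMI CPM, and the 2.14 on 2 UMIs. Over the 4 libraries Chek2 was 3.88-fold lower in growing cells (2.21 to 6.82, adjusted p = 6.94e-04). Atr (1.72-fold lower, 1.38 to 2.13, adjusted p = 5.30e-04) and Atm (1.70-fold lower, 1.17 to 2.47, adjusted p = 0.0216) had the same direction, although in the non-irradiated Chek2-/- library Atm stood at the same level in both classes.

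H2afx was 1.33-fold higher in growing cells (1.10 to 1.59, adjusted p = 0.0138) and Mdc1 was at 0.777-fold (0.626 to 0.966, adjusted p = 0.0532). These smaller differences depended on single libraries: the H2afx call was lost without the non-irradiated wild-type or the irradiated Chek2-/- library, the Atm call without the irradiated Chek2-/- library, and Mdc1 was called without the irradiated wild-type library. The non-irradiated Chek2-/- library contributed 4 growing cells. Of the pathway list 13 of 45 were higher and 10 lower (22.9% and 25.9% of all genes), with a median of 0.03 against -0.14 over all genes. Among them were Brca1 (1.16), Rpa3 (1.01), Usp3, a deubiquitylase of histone H2A (0.93), and Herc2, a partner of RNF8 (0.87), which were higher, and Nbn of the MRN complex (-1.05), which was lower. Cdkn1a was lower by a log2 fold change of -3.50, and 77 of the primordial-type cells were the irradiated wild-type sub-cluster.

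**Figure D5:**
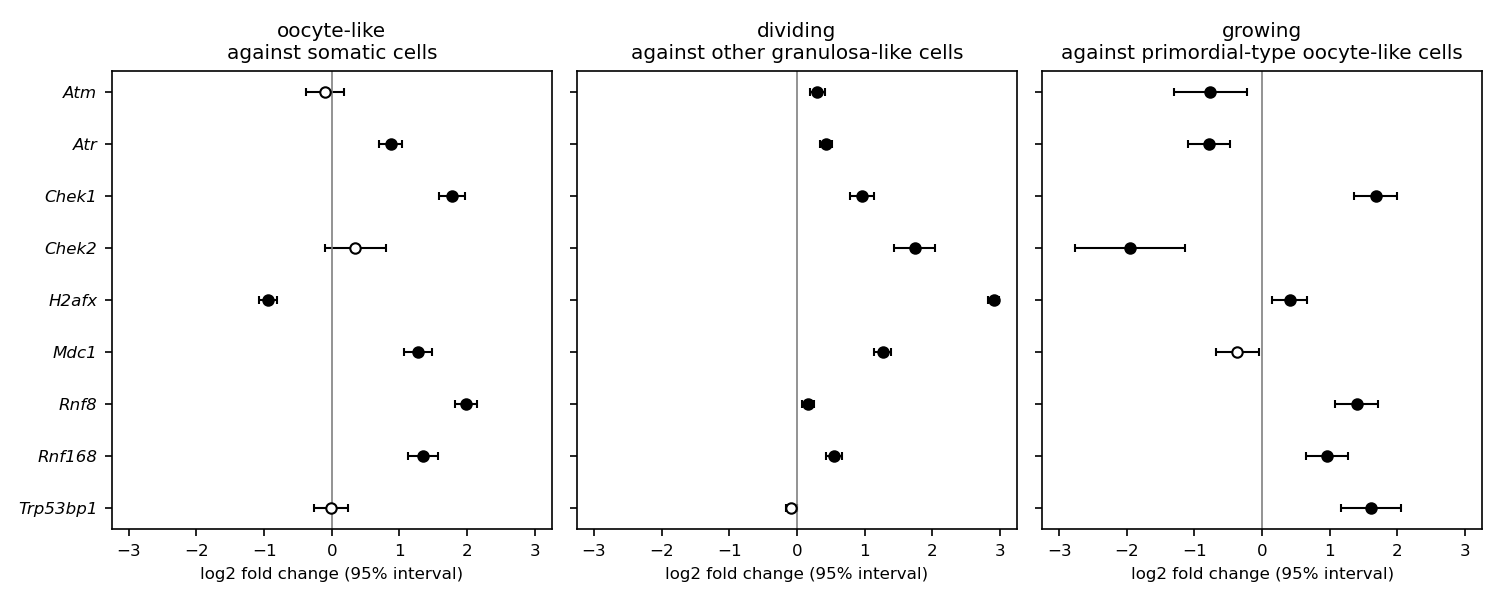
Log2 fold change with its 95% interval (x axis) of the 9 genes in 3 comparisons of cell classes over 4 single-cell libraries; filled points were called at an adjusted p of at most 0.05. Rnf8 (1.98) leads in oocyte-like against somatic cells, H2afx (2.91) in dividing against other granulosa-like cells, and Chek1 (1.68) and Chek2 (-1.96) mark both ends in growing against primordial-type oocyte-like cells.

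Within a class, irradiated and non-irradiated libraries could be set side by side without a test, since each is 1 pool. In granulosa-like cells outside division Chek1 was at 13.6 and 9.57 UMI CPM in the non-irradiated and irradiated wild-type libraries, a ratio of 0.702 (95% counting interval 0.629 to 0.784), and at 14.1 and 16.7 in the Chek2-/- libraries (1.19, 1.08 to 1.31). Mdc1 had a ratio of 0.766 (0.695 to 0.846) in wild-type and 1.22 (1.11 to 1.33) in Chek2-/-. Atr and Rnf168 each had a ratio of 0.799 in wild-type (0.750 to 0.851 and 0.740 to 0.862) and of 1.05 and 1.08 in Chek2-/-. This class sums 3 clusters whose shares moved in opposite directions in the genotypes: the cluster with the lowest Chek1 level held 833 of 2423 and 1319 of 2968 cells in the wild-type libraries, and 1108 of 2639 and 817 of 2609 in the Chek2-/- ones. Within the 3 clusters, a division made after seeing the data, the Chek1 ratio was 0.799 to 0.923 in wild-type and 0.982 to 1.07 in Chek2-/-, and the counting interval did not include 1 in only 1 of these clusters, in wild-type (0.719 to 0.926). Within clusters Mdc1 ran from 0.659 to 0.859 and from 0.908 to 1.24, Atr from 0.734 to 0.828 and from 0.956 to 1.12, and Rnf168 from 0.780 to 0.914 and from 1.02 to 1.08. In wild-type the interval lay below 1 in 3 of 3 clusters for Atr and in 2 of 3 for Mdc1 and for Rnf168. In Chek2-/- it lay above 1 in 1 of 3 for Mdc1 (1.11 to 1.38) and included 1 in all 3 for Atr and for Rnf168.

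In primordial-type oocyte-like cells the wild-type ratio was 0.653 for Mdc1 (0.550 to 0.778), 0.729 for Chek1 (0.599 to 0.892) and 0.734 for Rnf168 (0.619 to 0.875), against 1.07, 0.870 and 0.959 in Chek2-/-. Median UMIs per cell of this class were 127873.5 and 33633 in the non-irradiated and irradiated wild-type libraries. In the Chek2-/- libraries they were 141038 and 5438, so these ratios too set cells of unlike depth side by side. The wild-type ratios set different sub-clusters side by side, since all 22 non-irradiated cells lay in one and 77 of the 89 irradiated cells in the other. Within the sub-cluster that both libraries share (22 and 12 cells) they were 0.714 (0.146 to 2.12), 1.61 (0.515 to 3.86) and 0.489 (0.0588 to 1.79), so that no difference was detectable there. H2afx had a ratio of 1.74 (1.56 to 1.95) in epithelial-like cells of wild-type and 1.45 (1.29 to 1.62) in those of Chek2-/- ovaries, and of 1.16 and 0.988 in dividing granulosa-like cells. Trp53bp1 had a ratio of 2.37 (1.74 to 3.29) in growing oocyte-like cells of Chek2-/- ovaries, between 4 and 9 cells. Over 108 ratios of the 9 genes and their classes in wild-type and 113 in Chek2-/- libraries the median was 0.940 and 1.03, respectively, and counting intervals hold none of the spread between pools. Over these whole classes the interval did not include 1 in 32 of the 108 wild-type and 18 of the 113 Chek2-/- ratios. Ratios over all genes are not given here, so whether these differences are particular to the 9 genes was not tested.

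Likeness of pattern was described by Pearson's r of log2 levels over 51 sums of UMIs, one for each class in each library, which share libraries and depth. Among the 9 genes the closest pairs were Rnf8 with Rnf168 (r = 0.94), Chek1 with Rnf168 (0.90) and Chek1 with Rnf8 (0.86), whereas Chek2 with Trp53bp1 had r = -0.27 (-0.26 over the 25 sums of the wild-type libraries). Over 13231 other genes the patterns most like Rnf8 were those of Fbxo43 (0.98), Med28 (0.97) and Ddx28 (0.97). For Chek1 they were Stard7 (0.96), Polr2d (0.95) and Ranbp3 (0.94), and for Rnf168 Stt3b (0.97), Wdr76 (0.96) and Paip2b (0.96).

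H2afx was most like Cenpi (0.95), Smc2 (0.94) and Shcbp1 (0.93), which act in chromosome segregation and division. Mdc1 was most like Fzr1 (0.95), Cenpm (0.94) and Cenpn (0.93). Trp53bp1 reached 0.85 with B3gntl1, Atr 0.93 with Nol8, Atm 0.74 with 2810004N23Rik, and Chek2 no more than 0.66, with Hist1h2ap. The Chek2-/- libraries, in which Chek2 was lower in every class, enter this value. Over the 25 wild-type sums alone, chosen after seeing the data, Chek2 was most like Cep192 (0.85), Cenpe (0.84) and Miip (0.84).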

How the data were processed

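The bulk values are estimated counts per gene that the authors made with Salmon 1.3.0 from trimmed reads of poly(A) libraries and deposited without normalization. They were rounded to whole numbers here. The methods name Ensembl release 105 and the processing notes mm10, so the build is not settled; genes were matched by identifier. Single-cell matrices were deposited as whole-number UMI counts from Cell Ranger on mm10. The 9 members and the gene lists were chosen with earlier results of these data known. Named pathway genes are the called ones, up to 5 per comparison by smallest adjusted p, plus Cdkn1a, and per member the 3 genes of highest correlation.

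Genes with at least 10 counts over 24 libraries were tested with edgeR 4.0.16 in R 4.3.3 (TMM, 4 groups in 1 fit). Other p-values came from DESeq2 1.42.0 and limma 3.58.1 as alternatives. Scripts were tested on simulated data. Same-numbered libraries deviated together in the Chek2-/- groups (r 0.111 to 0.914, over 0.1 in 6 of 6 pairs). In wild-type r was -0.135 to 0.610 and over 0.1 in 5 of 6 pairs. The labels do not say whether the numbers pair the samples, and the main tests did not pair them in either genotype. No pair of replicates agreed within sampling noise. Cells were filtered as in the methods, cleared of doublets (4.02 to 5.47%) and clustered with scanpy 1.11.5 (2000 variable genes, 30 components, 15 neighbours, Leiden resolution 0.5). No correction between libraries was applied before clustering, whereas the study used Harmony. A cluster was named when at least 3 markers and 60% of a list were 2-fold over the median cluster in 25% of cells; clusters under 50 cells stayed unnamed. These naming limits were set after the clusters were seen.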

Additional observations from a re-analysis of the deposited data

Results flagged for a closer look

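In 5 of the 36 sets of 6 bulk libraries (9 genes in 4 groups), 1 library lay apart from the rest by Dixon's test. For independent sets chance gives about 1 in 20, but the 9 genes were measured in the same libraries. Each of the 5 was a Chek2-/- library numbered 6. These were Chek1 in the non-irradiated (32.8 CPM) and irradiated library (36.9 CPM), Mdc1 (137.7 CPM) and Rnf8 (58.9 CPM) in the non-irradiated one, and Rnf168 (75.9 CPM) in the irradiated one. Summed growing oocyte markers were at 2006 and 2245 CPM in these libraries, and their part in the low levels was not tested.

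The irradiation effect differed between genotypes (log2, Chek2-/- minus wild-type, edgeR interaction term) for 3 pathway genes and 4 p53 targets. The difference was 0.63 for Rad1, -0.31 for Rnf169 and -0.40 for Ppm1d. It was -1.36 for Cdkn1a (adjusted p = 5.36e-05), -1.31 for Mdm2, -1.47 for Ccng1 and -1.44 for Bbc3.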

How the results depend on the processing

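Counts of the 9 genes were recomputed under each alternative, and no called gene changed sign. With the 2 wild-type groups fitted alone, 1 gene (Rnf8) was called after IR in place of 0, and leaving out single libraries gave 0 to 1. Between genotypes without IR, DESeq2 called 2 in place of 1, with 1 to 1 over left-out libraries and Chek2 at -2.63 to -2.51. After IR a 2-fold minimum left 1 of the 4 calls, the fit without a filter 3, and left-out libraries gave 3 to 4. The 2-fold minimum left 3 of 8 calls in dividing granulosa-like and 4 of 8 in growing oocyte-like cells. Left-out libraries gave 0 to 0 for IR in Chek2-/- ovaries and for the difference between genotypes, 6 to 7 for oocyte-like, 8 to 8 for dividing and 6 to 9 for growing cells. With the replicate number as a block the member counts were 0, 0, 0, 1 and 4 in the 5 bulk comparisons, as without it; the all-gene counts moved from 646 to 661, 3 to 4, 277 to 281, 1430 to 2025 and 2636 to 3125, and no other call of a member changed. All-gene counts moved by more than 1.5 times with DESeq2 (14 against 3 for IR in Chek2-/-, 458 against 277 for the difference, 2507 against 1430 between genotypes without IR), with the 2 groups alone (1 against 3, and 785 against 1430), and with a 2-fold minimum (288, 1, 167, 211 and 639 in bulk, 1883 of 9933 in dividing and 4701 of 7581 in growing cells). The cause of these differences was not tested. Single-cell levels of Chek2 in growing oocyte-like cells rest on 43 UMIs in all.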
